A study of Mus musculus with 9 samples.

Results

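Blood and lymphatic vessels of the skin were followed through 32 genes that mark the endothelium in mouse ear dermis. The genes are known markers, and the rule that lists them uses no measured value, although the list was drawn up with earlier results of these data known. They are 18 genes of endothelial cells in general, 4 of arteries or veins, 6 of capillaries and sprouting vessels, and 4 of lymphatic vessels. They were found among the 52550 genes of the count table, and all 32 passed the low-count filter that left 22430 tested genes. Messenger RNA was sequenced from 9 libraries of ear dermis, 3 in each of 3 groups of wild type C57BL/6 mice aged 8 weeks, named C57BL/6J in the study's methods. The methods state that RNA came from ear sheets of 2 mice, without saying whether this was per library. A figure legend of the study gives n = 3 for each group, without saying whether these are animals. Whether the 3 libraries of a group are separate animals is thus not known. VAS+H2O mice had vaseline on the ear and water by mouth. IMQ+H2O mice had imiquimod on the ear, a TLR7 agonist that brings on psoriasis-like skin inflammation, and water. IMQ+XYF mice had imiquimod together with the herbal decoction Xiao-Yin-Fang (XYF) at 23.3 mg/g. All mice were gavaged with 200 µl for 10 days, and the ear was treated on the last 5 of them. No group received XYF without imiquimod. The dermis is a mixed tissue, and in bulk RNA of this kind fewer cells of a type and less RNA per cell cannot be told apart.

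Endothelial cells line all vessels and hold together through cadherin and claudin junctions, and ETS and SOX transcription factors keep their identity. Capillary cells handle lipids and solutes, venular cells pass chemokines and leukocytes across the wall, and lymphatic cells, specified by PROX1, drain fluid from the tissue. Widened and winding dermal vessels are a known feature of psoriatic skin.

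Total counts ran from 28756305 to 79836881 per library, and the smallest count of any of the 32 genes in a library was 18. Values are given as CPM after TMM scaling of the libraries (scaled CPM), and levels of different genes are compared per kilobase of exon. Sums over marker lists, and values set against the mean of the general genes, are not scaled for exon length. Per kilobase, the 3 highest genes of VAS+H2O dermis were Plvap at 73.3, Lyve1 at 48.2 and Cd34 at 42.4 scaled CPM per kb. The junction genes Pecam1 and Cdh5, which define the endothelium, were present at 39.6 and 27.8 scaled CPM per kb. Transcription factors were lower, from 19 for Erg to 1.89 scaled CPM per kb for Sox17, and Esm1 was the lowest gene at 1.02. Plvap was the highest and Esm1 the lowest in each of the 3 groups. By these levels Cd34 went from rank 3 in VAS+H2O to rank 12 in IMQ+H2O, and Pdpn from rank 7 to rank 3. The 32 genes together took 0.199% to 0.276% of the counts in VAS+H2O, 0.400% to 0.412% in IMQ+H2O and 0.174% to 0.382% in IMQ+XYF.

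To show regulatory sequence of genes that moved together, promoter windows were taken from a RefSeq table of GRCm38.p6, each with 250 bases before and 50 bases after an annotated start. The table held 20 windows for 15 of the 32 genes. Both strands were searched for 7 motifs. The ETS core GGAAG was in 15 of the 20 windows and in 71.4% of all 32851 windows of the table. Its longer forms AGGAAG and CGGAAG were in 10 and 1 of the 20 windows, and in 35.4% and 16.9% of all windows. The SOX core ACAAT was in 7 of the 20 windows and in 31.0% of all windows. The hypoxia response core ACGTG was in 2 of the 20 windows and in 19.6% of all windows. The letters AGATAA, bound by GATA factors, were likewise in 2 of the 20 windows and in 11.2% of all windows. AACAGGAA, a short form of the composite FOX and ETS site of endothelial enhancers, overlaps the ETS core by the letters GGAA. It was in 3 of the 20 windows, those of Egfl7, Emcn and Ackr1, and in 2.65% of all windows, and was picked for display after these counts had been seen. The windows with a match are shown beside that of Esm1, which had the lowest fitted fold change of the 32 genes in each of the 3 comparisons that follow. Capitals mark the match, which for Emcn lies on the reverse strand and reads as TTCCTGTT. The Egfl7 window is chr2:26580833-26581132 on the plus strand, and the Emcn window is chr3:137340828-137341127 on the plus strand. The Ackr1 window is chr1:173333454-173333753 on the minus strand, and the Esm1 window is chr13:113209409-113209708 on the plus strand.
Egfl7: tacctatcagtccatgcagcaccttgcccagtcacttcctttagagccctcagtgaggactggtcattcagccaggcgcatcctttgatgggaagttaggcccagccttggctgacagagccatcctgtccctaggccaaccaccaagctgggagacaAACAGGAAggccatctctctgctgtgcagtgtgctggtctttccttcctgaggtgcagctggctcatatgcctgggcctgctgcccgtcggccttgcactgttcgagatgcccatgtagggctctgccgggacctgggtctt
Emcn: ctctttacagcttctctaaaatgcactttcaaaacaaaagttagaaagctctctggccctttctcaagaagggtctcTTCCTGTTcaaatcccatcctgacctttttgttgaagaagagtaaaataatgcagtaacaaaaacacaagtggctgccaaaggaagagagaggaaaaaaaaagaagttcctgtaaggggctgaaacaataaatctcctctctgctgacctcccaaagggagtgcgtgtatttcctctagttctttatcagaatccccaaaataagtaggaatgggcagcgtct
Ackr1: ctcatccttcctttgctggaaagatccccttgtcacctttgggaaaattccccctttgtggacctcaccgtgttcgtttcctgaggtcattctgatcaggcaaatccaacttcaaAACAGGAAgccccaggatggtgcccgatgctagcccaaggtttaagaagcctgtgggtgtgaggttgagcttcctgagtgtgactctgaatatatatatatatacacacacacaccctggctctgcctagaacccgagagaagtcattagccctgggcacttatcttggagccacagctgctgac
Esm1: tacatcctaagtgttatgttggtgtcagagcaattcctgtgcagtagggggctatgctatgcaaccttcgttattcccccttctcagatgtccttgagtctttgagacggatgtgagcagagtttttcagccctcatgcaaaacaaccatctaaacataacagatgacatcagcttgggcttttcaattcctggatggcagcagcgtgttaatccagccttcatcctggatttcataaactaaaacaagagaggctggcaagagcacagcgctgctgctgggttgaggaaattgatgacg
These matches are letters in a window, and binding was not measured.

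The effect of imiquimod on the vessel genes was read from IMQ+H2O against VAS+H2O. The fitted log2 fold change was above 0 for 28 of the 32 vessel genes, where 47.7% of all tested genes were above 0. Its median was 0.78, against -0.02 over all tested genes. The groups did not overlap for 22 genes, 21 of them higher in IMQ+H2O and Esm1 lower, where 31.5% of all tested genes had groups that did not overlap in either direction. An unadjusted p of 0.05 or lower was reached by 18 genes, 17 of them higher, where 20.9% of all tested genes reached it in either direction. A call needed an adjusted p (Benjamini-Hochberg over all tested genes) of at most 0.05 and an absolute log2 fold change of at least 1. The quasi-likelihood test of edgeR called Ecscr, Nos3 and Plvap, all higher, which is 3 of the 32 genes, where it called 0.994% of all tested genes. Without any 1 of the 6 libraries compared, no gene of the 32 was called, with 10 to 19 genes at an unadjusted p of 0.05 or lower, while calls over all tested genes went from 223 to between 25 and 125. The log2 fold changes in these fits stayed between 1.40 and 1.83 for Plvap, 1.29 and 1.67 for Nos3, and 1.27 and 1.53 for Ecscr. The IMQ+XYF libraries enter the fit through the shared estimate of spread. Without IMQ+XYF replicate 2, 7 genes were called, and 1.99% of all tested genes. Without IMQ+XYF replicate 1 only Ecscr was called, beside 1.37% of all tested genes, and without replicate 3 it was 3 genes and 0.781%.

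**Figure D1:**
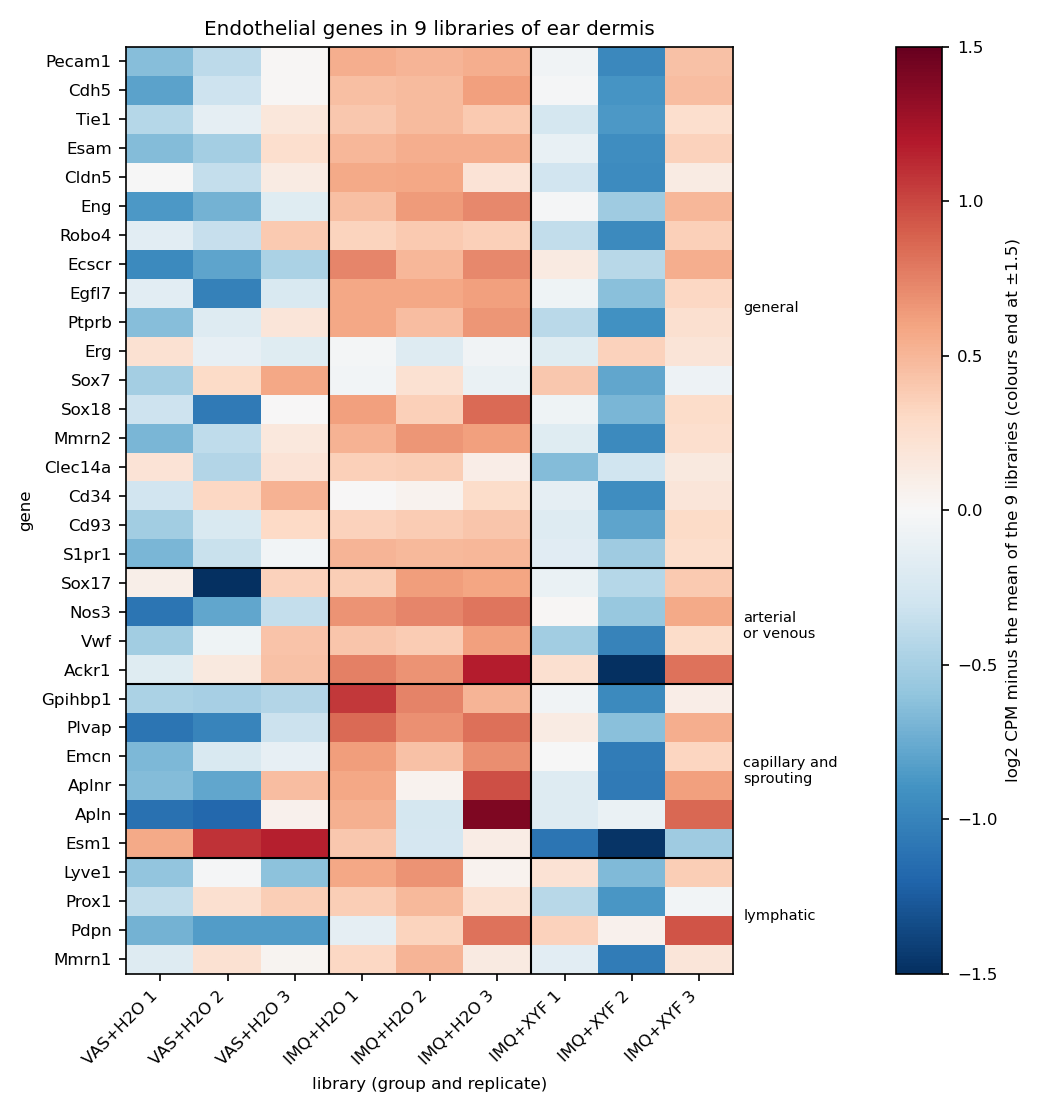
Colours give log2 CPM minus the mean of the 9 libraries for the 32 endothelial genes (vertical axis, in 4 groups set apart by lines) in each library (horizontal axis, 3 per group). The IMQ+H2O columns are mostly red, IMQ+XYF replicate 2 is mostly blue and is the lowest library for 20 of the 32 genes, and the row of Esm1 runs from red in VAS+H2O to blue in IMQ+XYF.

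Plvap builds the diaphragms of fenestrae and caveolae in capillaries and venules (chr8:71497765-71511752, minus strand, GRCm38). It stood at 115.6, 123.6 and 197.5 scaled CPM in the VAS+H2O libraries and at 445.0, 395.5 and 438.1 in the IMQ+H2O libraries. Every IMQ+H2O library was above every VAS+H2O library. The fitted difference was a log2 fold change of 1.55 ± 0.30 (SE), a 2.93-fold rise with an adjusted p of 0.0490 by edgeR.

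Nos3, the endothelial nitric oxide synthase (chr5:24364810-24384474, plus strand), stood at 26.7, 33.1 and 44.5 scaled CPM in VAS+H2O. In IMQ+H2O it stood at 91.1, 94.7 and 99.8, again without overlap. This gave a log2 fold change of 1.45 ± 0.28, or a 2.74-fold rise (adjusted p = 0.0478 by edgeR). Exons of Nos3 share 1040 bases with the antisense gene Gm15587 and 294 bases with Atg9b on the opposite strand, and the use of the strand in counting was not stated. Over all 9 libraries these genes held 1224 and 4088 counts beside 29023 counts of Nos3, with log2 fold changes of 0.93 for Gm15587 and -0.70 for Atg9b.

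Ecscr encodes a membrane protein of endothelial cells that acts in their migration and survival. Its VAS+H2O libraries had 29.1, 32.6 and 40.9 scaled CPM, and its IMQ+H2O libraries 94.0, 80.1 and 93.6. The lowest IMQ+H2O library was thus above the highest VAS+H2O library. Its log2 fold change was 1.38 ± 0.23, a 2.61-fold rise with an adjusted p of 0.0329 by edgeR, the smallest among the 32 genes in this comparison.

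**Figure D2:**
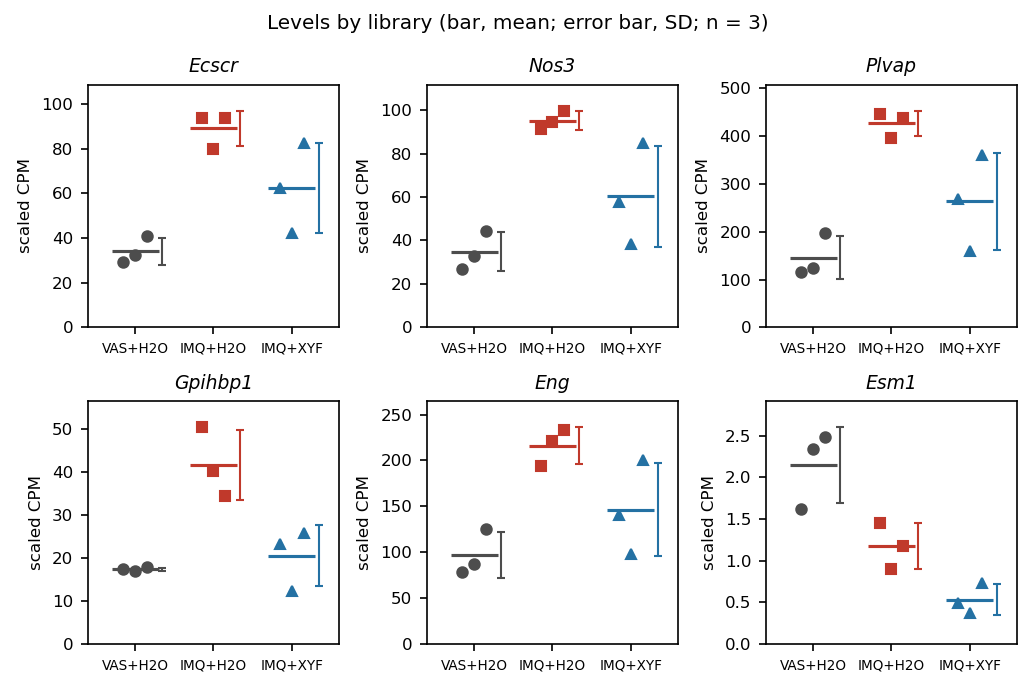
Scaled CPM (vertical axes, from 0) of 6 endothelial genes in VAS+H2O, IMQ+H2O and IMQ+XYF (horizontal axes), with each library as a point, the mean as a bar and the SD as an error bar (n = 3). Ecscr, Nos3, Plvap, Gpihbp1 and Eng had no overlap between VAS+H2O and IMQ+H2O, while Esm1 ran the other way, from 2.15 in VAS+H2O to 0.527 in IMQ+XYF.

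A further 5 genes had smaller unadjusted p values than the rest without being called. Gpihbp1, which carries lipoprotein lipase to the capillary lumen, was steady in VAS+H2O at 17.3, 16.9 and 17.7 scaled CPM and stood at 50.4, 40.2 and 34.3 in IMQ+H2O. Its groups did not overlap, and its log2 fold change was 1.26 ± 0.26 (adjusted p = 0.0553 by edgeR). Eng, a co-receptor for TGF-beta and BMP ligands, had 78.0, 86.8 and 125.4 scaled CPM in VAS+H2O and 193.8, 221.1 and 233.5 in IMQ+H2O. These groups lay apart as well, with a log2 fold change of 1.16 ± 0.26 (adjusted p = 0.0691). S1pr1, the receptor for sphingosine-1-phosphate that steadies the endothelial barrier, had 70.9, 90.04 and 111.0 scaled CPM in VAS+H2O and 161.9, 159.7 and 161.5 in IMQ+H2O. S1pr1 had a log2 fold change of 0.83 ± 0.22 (adjusted p = 0.0909). Egfl7, a secreted matrix protein whose gene hosts miR-126, had 61.0, 33.6 and 58.2 scaled CPM in VAS+H2O against 101.3, 101.7 and 104.1 in IMQ+H2O. Its log2 fold change was 1.01 ± 0.27 (adjusted p = 0.0941). For Egfl7 and S1pr1 too, no library of one group reached into the other. The fifth gene, Pdpn, is described with the lymphatic genes.

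By role, the 6 capillary and sprouting genes had a median log2 fold change of 1.09 and the 18 general genes one of 0.76. The 4 arterial or venous genes had 0.73 and the 4 lymphatic genes 0.56. These differences between roles were not tested. Among the general genes, 15 of 18 were above 0, and the exceptions were Erg at -0.08, Cd34 at -0.10 and Sox7 at -0.15. Erg is an ETS factor of endothelium that cartilage cells also express, and Cd34 is a sialomucin also found on dermal fibroblasts. The members of the SOX family differed in their fitted values, with 1.01 for Sox18, 0.74 for Sox17 and -0.15 for Sox7. Sox17 had 11.1, 2.78 and 13.2 scaled CPM in VAS+H2O, so that replicate 2 lay 2.77 times below the next lowest of the 9 libraries. The other genes of the general set, Pecam1, Cdh5, Tie1, Esam, Cldn5, Robo4, Ptprb, Mmrn2, Clec14a and Cd93, had log2 fold changes between 0.26 and 0.86 and none was called. Among the vessel-type genes not yet given, the glycoprotein gene Emcn had 0.91, the peptide ligand Apln 1.34 and its receptor Aplnr 0.78. The clotting factor Vwf had 0.47 and the chemokine receptor Ackr1 0.73, and none of these genes was called. Esm1 and the lymphatic genes are described further on.

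Markers of other cells moved in the same comparison. Of the 10 cartilage genes, 8 were tested and all 8 were lower in IMQ+H2O, with a median log2 fold change of -1.81 and 2 called. Their summed level was 1098 to 1948 scaled CPM in VAS+H2O and 309.3 to 518.3 in IMQ+H2O, and 1 of the 10, Matn1, had no count in any library, which allows up to 3 counts in each. The 10 macrophage genes had a median of 0.52, and their sum was 580.1 to 839.3 scaled CPM in VAS+H2O and 698.7 to 1117 in IMQ+H2O. The 7 tested of 10 neutrophil genes had a median of 4.72, with Camp below 0 at -1.01, and Ly6g, Mpo and Elane were too low to be tested. The sum of all 10 went from 6.67 to 22.5 scaled CPM in VAS+H2O to 204.6 to 645.9 in IMQ+H2O. In IMQ+H2O S100a8 and S100a9 had means of 126.4 and 168.2, within a mean sum of 365.2. The 10 keratinocyte genes had a median of -0.99 and the 8 fibroblast genes one of -0.47. The 11 pericyte and smooth muscle genes had a median of 0.20, the 10 skeletal muscle genes 0.25 and the 8 adipocyte genes -0.01. The 5 tested megakaryocyte and platelet genes and the 4 tested genes of a general leukocyte list had medians of 0.000437 and -0.17. The part of these shifts in the values of the endothelial genes was not tested.

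**Figure D3:**
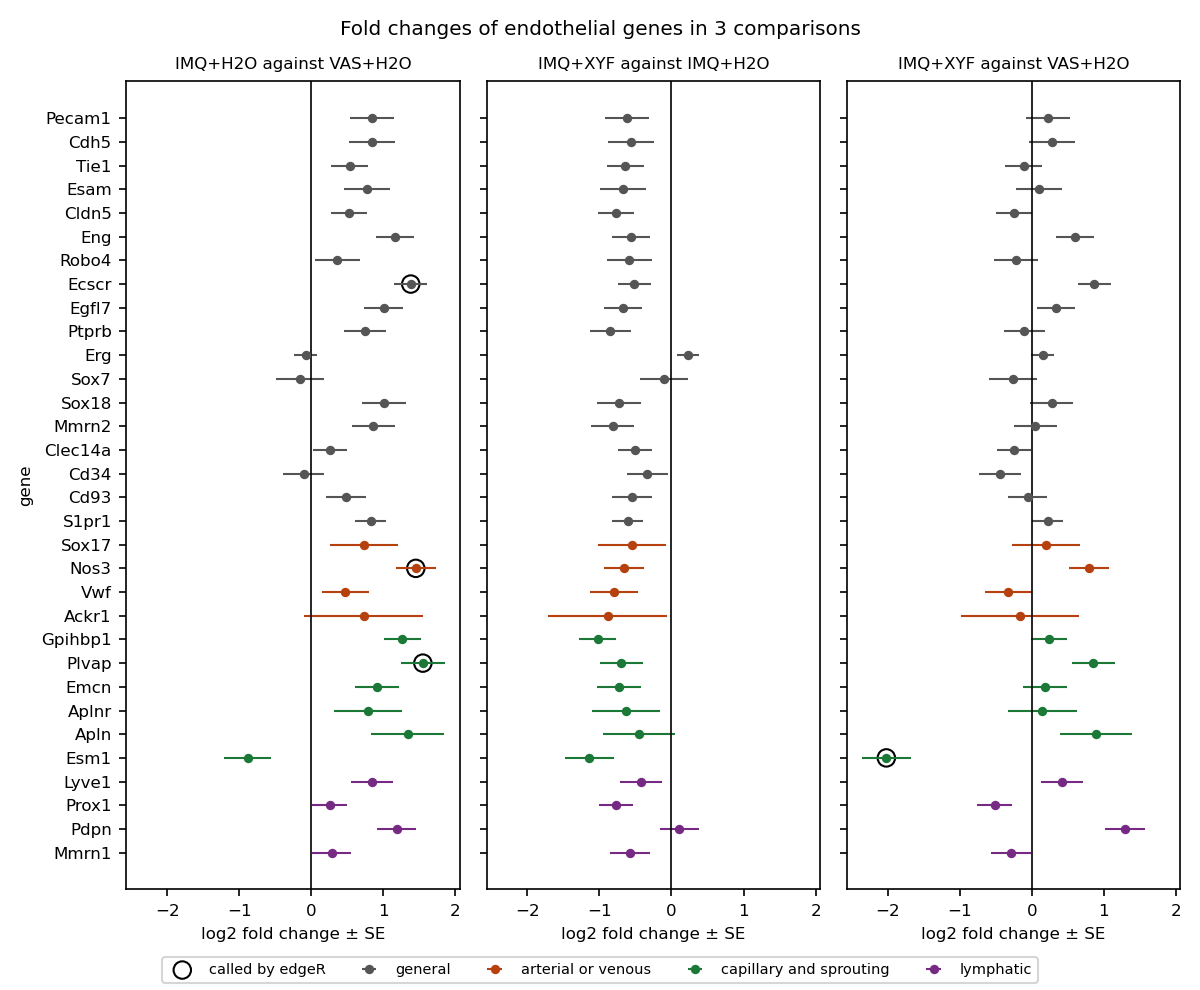
Log2 fold change with its SE (horizontal axes) for each of the 32 endothelial genes (vertical axis, coloured by role) in 3 comparisons that share groups, with circles round genes called by edgeR. In IMQ+H2O against VAS+H2O 28 genes lie right of 0, in IMQ+XYF against IMQ+H2O 30 lie left of it, and in IMQ+XYF against VAS+H2O 19 lie right of it.

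The effect of XYF on imiquimod-treated ears was read from IMQ+XYF against IMQ+H2O. The vessel genes lay lower under XYF, and edgeR called none of the 32. The fitted log2 fold change was below 0 for 30 of the 32 genes, where 50.7% of all tested genes were above 0, and its median was -0.63, against 0.01 over all tested genes. All 17 genes whose groups did not overlap were lower in IMQ+XYF, where 18.0% of all tested genes had groups that did not overlap in either direction. An unadjusted p of 0.05 or lower was reached by 14 genes, all lower, where 11.7% of all tested genes reached it. The adjusted p values ran from 0.363 to 0.914, and edgeR called 0.00892% of all tested genes. The Wald test of DESeq2 called 1 gene of the 32, Gpihbp1, and 1.1% of the genes to which it gave an adjusted p. The spread within IMQ+XYF was wide. Without its replicate 2 the median was -0.35, with 4 genes at an unadjusted p of 0.05 or lower, and without its replicate 3 the median was -0.96. This comparison and the preceding one both use the IMQ+H2O libraries, so that their signs are not independent.

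The genes with the smallest p values belonged to the general, the capillary and sprouting, and the lymphatic lists. Gpihbp1 stood at 23.2, 12.4 and 25.8 scaled CPM in IMQ+XYF, below the lowest IMQ+H2O library at 34.3. Its log2 fold change was -1.02 ± 0.26 (adjusted p = 0.363 by edgeR). Cldn5, the tight junction claudin of endothelium, stood at 66.3, 67.0 and 51.6 scaled CPM in IMQ+H2O and at 36.6, 23.3 and 48.7 in IMQ+XYF. The 2 groups lay next to each other without overlap, with a log2 fold change of -0.77 ± 0.25 (adjusted p = 0.367). Ptprb, a phosphatase that acts on TIE2 and VE-cadherin, had 212.6, 196.9 and 225.2 scaled CPM in IMQ+H2O and 107.9, 76.1 and 168.7 in IMQ+XYF. Its log2 fold change was -0.85 ± 0.29 (adjusted p = 0.378). Mmrn2, a matrix protein bound by the receptors CLEC14A and CD93, had 84.1, 92.6 and 89.4 scaled CPM in IMQ+H2O and 51.8, 30.2 and 69.4 in IMQ+XYF. Its log2 fold change was -0.81 ± 0.30 (adjusted p = 0.382). Ptprb and Mmrn2 had no overlap between the groups either, and in all 4 genes IMQ+XYF replicate 2 was the lowest of the 9 libraries.

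S1pr1 and Egfl7, higher under imiquimod without being called, had IMQ+XYF libraries below all IMQ+H2O libraries. S1pr1 had 101.3, 78.4 and 137.2 scaled CPM in IMQ+XYF and a log2 fold change of -0.61 ± 0.22 (adjusted p = 0.379). Egfl7 had 64.7, 44.1 and 84.2 scaled CPM and a log2 fold change of -0.67 ± 0.26 (adjusted p = 0.396). The called genes of the first comparison stood at 269.0, 159.5 and 360.8 scaled CPM for Plvap, at 57.9, 38.3 and 84.7 for Nos3 and at 62.3, 42.5 and 82.6 for Ecscr in IMQ+XYF. Plvap and Nos3 lay below every IMQ+H2O library, and Ecscr overlapped by 1 library. Their log2 fold changes were -0.70 ± 0.30 for Plvap, -0.66 ± 0.28 for Nos3 and -0.51 ± 0.23 for Ecscr, with adjusted p values of 0.416, 0.409 and 0.424. By role, the median was -0.60 for the general genes, -0.73 for the arterial or venous genes, -0.71 for the capillary and sprouting genes and -0.50 for the lymphatic genes. Erg and Pdpn were the genes above 0, at 0.23 and 0.11.

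The venular chemokine receptor Ackr1, which carries chemokines across the vessel wall, held a single low library. It was chosen for mention after its values were seen. It stood at 38.9, 48.9 and 59.9 scaled CPM in VAS+H2O and at 74.6, 70.3 and 99.6 in IMQ+H2O. Under XYF it stood at 52.0, 2.58 and 77.5, where the value of replicate 2 was 15 times below the next lowest of the 9 libraries. Among 10893 tested genes with a mean of at least 10 CPM, 8 had a lowest library at least 10 times below the next, and in 2 of them that library was IMQ+XYF replicate 2. Exons of Ackr1 share 361 bases with Cadm3 on the same strand, and Cadm3 stood at 67.3 scaled CPM in that library and at 112.5 to 183.6 in the others. The log2 fold change of Ackr1 was -0.89 ± 0.83 (adjusted p = 0.685), so its SE was larger than that of any other gene of the 32.

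Other cell types differed along with the vessel genes here too. The 8 tested cartilage genes were all above 0 with a median log2 fold change of 1.47, and their sum was 630.5 to 1878 scaled CPM in IMQ+XYF, highest in replicate 2. The 10 keratinocyte genes had a median of 1.41 and a sum of 2230 to 3343 scaled CPM in IMQ+H2O and 3923 to 14860 in IMQ+XYF. The 10 skeletal muscle genes were all below 0 with a median of -1.73, and the 11 pericyte and smooth muscle genes had a median of -0.75. The 10 macrophage genes had a median of -0.57, the 7 tested neutrophil genes -0.17 and the 8 fibroblast genes -0.11. Over the 9 libraries Erg was highest at 84.5 scaled CPM in IMQ+XYF replicate 2 and at 77.9 in VAS+H2O replicate 1, and these were also the libraries with the largest cartilage sums, 1878 and 1948. Their part in the endothelial values was not tested.

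The comparison of IMQ+XYF with VAS+H2O set the treated inflamed ear against the control ear. The median log2 fold change of the 32 genes was 0.15, against -0.02 over all tested genes, and 19 genes were above 0, where 47.3% of all tested genes were above 0. The groups did not overlap for Ecscr and Pdpn, both higher in IMQ+XYF, and for Esm1, which was lower, where 22.1% of all tested genes had groups that did not overlap. An unadjusted p of 0.05 or lower was reached by 6 genes, 5 higher and 1 lower, where 18.3% of all tested genes reached it. edgeR called 1 gene of the 32, Esm1, where it called 1.20% of all tested genes. Without IMQ+XYF replicate 2 the median was 0.44 and 5 genes were called, Ecscr, Nos3, Plvap and Pdpn higher and Esm1 lower, and 2.59% of all tested genes.

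Esm1, or endocan, is a proteoglycan secreted by the tip cells of sprouting vessels (chr13:113209659-113218098, plus strand). It stood at 1.62, 2.33 and 2.48 scaled CPM in VAS+H2O, at 1.45, 0.898 and 1.17 in IMQ+H2O, and at 0.485, 0.366 and 0.731 in IMQ+XYF. The 3 groups were in falling order with no overlap between any of them, and the share of all tested genes with such an order was not counted. Counts were 67, 84 and 185, then 42, 37 and 60, then 39, 18 and 45, so Esm1 rested on the fewest reads of the 32 genes. It fell by 2.02 ± 0.34 on the log2 scale in IMQ+XYF against VAS+H2O (adjusted p = 0.0326 by edgeR). The corresponding value was -0.88 ± 0.33 in IMQ+H2O against VAS+H2O (adjusted p = 0.178) and -1.14 ± 0.34 in IMQ+XYF against IMQ+H2O (adjusted p = 0.364). The call was lost without any 1 library of the comparison other than IMQ+XYF replicate 2. In those fits the log2 fold change stayed between -2.32 and -1.9, and 12 to 115 of all tested genes were called. The call was also lost in the fit of the 6 libraries alone, where the log2 fold change was -2. Without IMQ+H2O replicate 2 or 3, which lie outside the comparison, it was lost too, beside 93 and 138 calls over all tested genes. It thus held in 2 of the 9 fits that left out a library.

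The remaining genes with an unadjusted p of 0.05 or lower were Ecscr, Plvap, Nos3, Eng and Pdpn. The log2 fold change of Ecscr was 0.87 ± 0.23 (adjusted p = 0.0894), that of Plvap 0.85 ± 0.30 (adjusted p = 0.170) and that of Nos3 0.79 ± 0.28 (adjusted p = 0.171). Eng, with 140.8, 98.5 and 200.1 scaled CPM in IMQ+XYF, had 0.60 ± 0.26 (adjusted p = 0.268). In Plvap, Nos3 and Eng the treated and control libraries overlapped. The medians by role were 0.08 for the general genes, 0.02 for the arterial or venous genes, 0.21 for the capillary and sprouting genes and 0.07 for the lymphatic genes.

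The 4 lymphatic genes were all above 0 in IMQ+H2O against VAS+H2O, 3 of them were below 0 in IMQ+XYF against IMQ+H2O, and none was called by edgeR in any comparison. Prox1, the transcription factor that sets lymphatic identity, stood at 22.8, 34.7 and 38.0 scaled CPM in VAS+H2O, at 38.1, 41.4 and 34.5 in IMQ+H2O and at 22.1, 16.1 and 28.6 in IMQ+XYF. Its VAS+H2O and IMQ+H2O libraries overlapped, and its IMQ+XYF libraries lay below those of IMQ+H2O. The log2 fold change was 0.26 ± 0.24 in IMQ+H2O against VAS+H2O (adjusted p = 0.574), -0.77 ± 0.24 in IMQ+XYF against IMQ+H2O (adjusted p = 0.364) and -0.52 ± 0.24 in IMQ+XYF against VAS+H2O (adjusted p = 0.292). Mmrn1, a multimerin stored by lymphatic cells and platelets, stood at 202.9, 270.7 and 239.4 scaled CPM in VAS+H2O, at 286.6, 328.7 and 254.0 in IMQ+H2O and at 207.6, 112.3 and 263.8 in IMQ+XYF. All 3 groups of Mmrn1 overlapped, and its log2 fold changes in the same order of comparisons were 0.29 ± 0.27, -0.57 ± 0.27 and -0.29 ± 0.27, with adjusted p values of 0.582, 0.449 and 0.646.

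Lyve1, the hyaluronan receptor of lymphatic capillaries that some skin macrophages share, stood at 121.5, 181.0 and 119.2 scaled CPM in VAS+H2O and at 274.8, 292.7 and 189.8 in IMQ+H2O. It stood at 212.6, 115.9 and 236.0 in IMQ+XYF. IMQ+H2O was above VAS+H2O in every library, and IMQ+XYF overlapped both. The log2 fold changes of Lyve1 were 0.84 ± 0.29 in IMQ+H2O against VAS+H2O (adjusted p = 0.155), -0.42 ± 0.29 in IMQ+XYF against IMQ+H2O (adjusted p = 0.571) and 0.42 ± 0.29 in IMQ+XYF against VAS+H2O (adjusted p = 0.497).

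Pdpn, podoplanin, is a membrane mucin of lymphatic endothelium that activated fibroblasts and keratinocytes also make. It stood at 64.0, 58.8 and 58.5 scaled CPM in VAS+H2O, at 95.7, 132.2 and 185.1 in IMQ+H2O and at 133.5, 109.3 and 202.3 in IMQ+XYF. Both imiquimod groups lay above VAS+H2O and overlapped each other. Its log2 fold change was 1.19 ± 0.27 in IMQ+H2O against VAS+H2O (adjusted p = 0.0707), 0.11 ± 0.27 in IMQ+XYF against IMQ+H2O (adjusted p = 0.896) and 1.30 ± 0.27 in IMQ+XYF against VAS+H2O (adjusted p = 0.0526). DESeq2 called Pdpn in the first and the last of these. Per kilobase, the ratio of Pdpn to Prox1 was 7.10 to 13.0 in VAS+H2O, 11.6 to 24.8 in IMQ+H2O and 27.9 to 32.7 in IMQ+XYF, a pair chosen after the values were seen and given without a test.

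**Figure D4:**
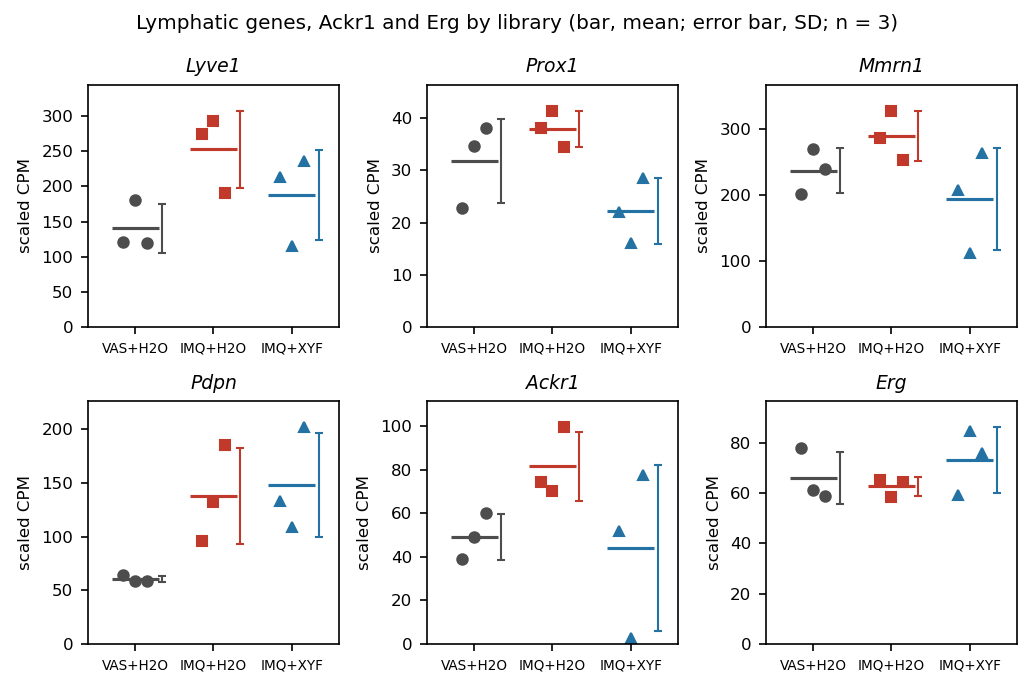
Scaled CPM (vertical axes, from 0) of the 4 lymphatic genes, Ackr1 and Erg in VAS+H2O, IMQ+H2O and IMQ+XYF (horizontal axes), with each library as a point, the mean as a bar and the SD as an error bar (n = 3). Pdpn is above 95 in all 6 imiquimod libraries and below 65 in VAS+H2O, Prox1 is lowest in IMQ+XYF, and Ackr1 has 1 IMQ+XYF library at 2.58.

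Since most of the genes went up and down together from library to library, each was also set against the mean log2 CPM of the 18 general genes of the same library. This measure describes which genes departed from the rest and was not tested. It was added with the values known. A general gene was left out of its own reference and set against the mean of the other general genes. Over the 9 libraries, 27 of the 32 genes had a correlation above 0.6 with that mean, and Erg had one of -0.53, where the points share the library's depth and scaling. This correlation includes the shifts between groups, and the share of all tested genes above 0.6 was not counted. With group means removed, it ran from -0.48 for Erg to 0.99 for Esam. Set against the general genes in this way, the 6 imiquimod libraries lay apart from the 3 VAS+H2O libraries for 6 of the 32 genes (18.8%). Against the mean of all 18 general genes, 5.28% of all tested genes did so. These shares are not like for like. Most of the 32 genes vary with the general mean, so subtracting it takes spread out of them. For unrelated genes the subtraction adds the spread of that mean. No enrichment can be read from the shares. Plvap, Nos3, Ecscr and Eng lay above and Esm1 and Cd34 below.

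Plvap was 1.13 to 1.36 above the general mean on the log2 scale in VAS+H2O and 1.86 to 2.22 above it in the imiquimod libraries. Nos3 went from between -0.98 and -0.74 to between -0.20 and 0.03, and Ecscr from between -0.96 and -0.81 to between -0.27 and -0.02. Eng was 0.59 to 0.75 above the mean in VAS+H2O and 1.08 to 1.33 above it under imiquimod. These ranges include IMQ+XYF replicate 2, in which the scaled CPM of the genes themselves were the lowest of the imiquimod libraries. Cd34 was 2.16 to 2.72 above the mean in VAS+H2O and 1.57 to 2.02 above it under imiquimod, and Esm1 went from between -4.99 and -4.54 to between -6.95 and -6.00. In Pdpn and Esm1, picked with the values known, the IMQ+XYF libraries lay apart from all other libraries. The share of all tested genes that did so was not counted. Pdpn had 1.04 to 1.31 in IMQ+XYF and at most 0.93 elsewhere. Esm1 had at most -6.766 in IMQ+XYF and at least -6.675 elsewhere, a narrow gap that rested on 18 to 45 counts per IMQ+XYF library. The log2 fold change of Pdpn itself in IMQ+XYF against IMQ+H2O was 0.11 (adjusted p = 0.896 by edgeR), while the median of the general genes was -0.60. In ratios per kilobase, Plvap to Pecam1 was 1.66 to 2 in VAS+H2O and 2.73 to 3.19 under imiquimod, and Nos3 to Pecam1 was 0.205 to 0.217 and 0.297 to 0.368.

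**Figure D5:**
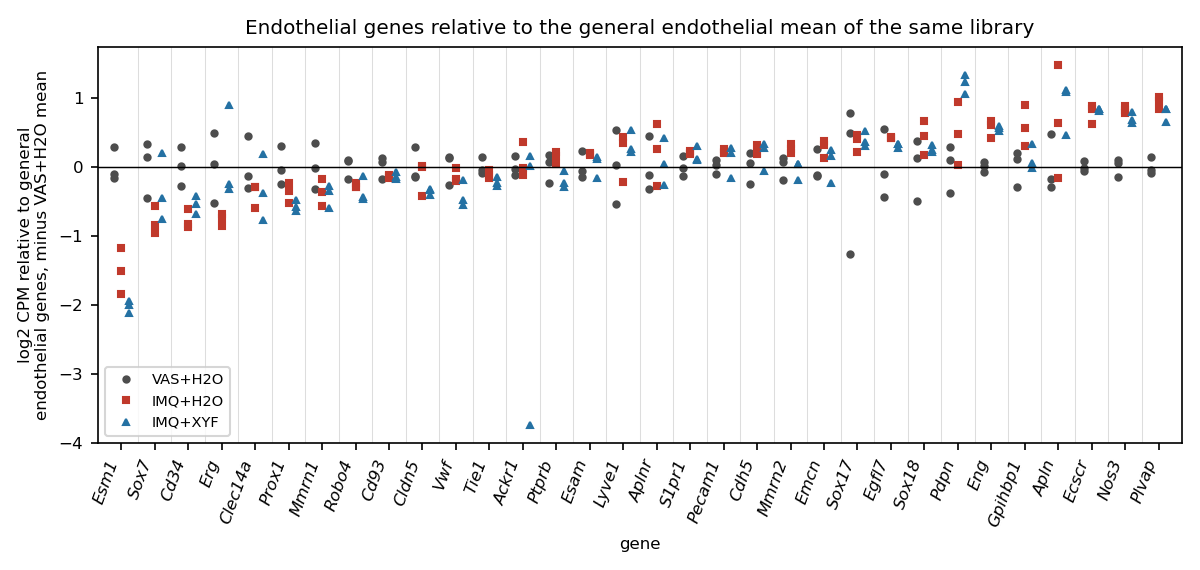
Log2 CPM relative to the mean of the 18 general endothelial genes of the same library, minus the VAS+H2O mean of the gene (vertical axis), for the 32 genes (horizontal axis, ordered by the IMQ+H2O difference), with each library as a point. For a general gene, the reference is the mean of the other general genes. Esm1 and Cd34 on the left and Eng, Ecscr, Nos3 and Plvap on the right have all 6 imiquimod libraries on one side of VAS+H2O.

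A second list of 32 endothelial genes that are not among those described was counted in the same fit. In IMQ+H2O against VAS+H2O 28 of them were above 0 with a median log2 fold change of 0.51, beside 47.7% of all tested genes. The groups did not overlap for 20, all higher, 10 reached an unadjusted p of 0.05 or lower, and 1 was called. The shares of all tested genes were 31.5%, 20.9% and 0.994%. Between IMQ+XYF and IMQ+H2O 31 were below 0 with a median of -0.62, where 50.7% of all tested genes were above 0. The groups did not overlap for 19, all lower, 13 reached that p and none was called by edgeR. Here the shares of all tested genes were 18.0%, 11.7% and 0.00892%. Between IMQ+XYF and VAS+H2O 9 were above 0 with a median of -0.08, where 47.3% of all tested genes were above 0. The groups did not overlap for 1 gene, 2 higher and 3 lower genes reached that p, and 1 was called. For these the shares of all tested genes were 22.1%, 18.3% and 1.20%. The called gene was in both cases Car4, a membrane carbonic anhydrase of capillaries. Car4 stood at 1.53, 0.361 and 1.26 scaled CPM in VAS+H2O, at 20.0, 37.3 and 40.5 in IMQ+H2O and at 31.0, 5.71 and 26.9 in IMQ+XYF. All imiquimod libraries were above all VAS+H2O libraries, with a log2 fold change of 4.93 ± 0.74 (adjusted p = 0.0247) for IMQ+H2O and 4.31 ± 0.72 (adjusted p = 0.0326) for IMQ+XYF against VAS+H2O.

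The genes next by p value were not called. In IMQ+H2O against VAS+H2O they were the arterial gap junction gene Gja5 with a log2 fold change of 2.14 (adjusted p = 0.0569), the receptor gene Notch4 with 1.46 (adjusted p = 0.0775), the venous and lymphatic factor Nr2f2 with 0.77 (adjusted p = 0.102) and the adhesion molecule Icam2 with 0.91 (adjusted p = 0.129). For IMQ+XYF against IMQ+H2O they were Nr2f2 with -0.83 (adjusted p = 0.364), Reln with -0.75 (adjusted p = 0.375), the ETS factor Fli1 with -0.38 (adjusted p = 0.379) and the VEGF-C receptor gene Flt4 with -0.73 (adjusted p = 0.379). For IMQ+XYF against VAS+H2O they were Reln with -0.84 (adjusted p = 0.123), Efnb2 with -0.49 (adjusted p = 0.194), Gja5 with 1.09 (adjusted p = 0.223) and Hey1 with -0.79 (adjusted p = 0.259).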

How the data were processed

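RNA was sequenced from 9 libraries of mouse ear dermis in 3 groups. The authors deposited whole-number counts per Ensembl gene with no normalization. Their methods name STAR, GRCm38 with Ensembl release 90, StringTie and DESeq2, and the submitters' processing notes give STAR 2.5, FastQC, Cuffnorm and DESeq 1.22.1. The counting tool and its use of the strand were not stated. The labels name a strand-specific library kit and the methods a kit without that property. A count of reads shared by overlapping genes is therefore uncertain. Per the methods the RNA was from ear sheets of 2 mice, and whether that was per library was not stated. A figure legend gives n = 3 for each group without naming the unit. The p-values therefore measure the spread between these libraries.

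The counts were tested with edgeR 4.0.16 in R 4.3.3, in 1 quasi-likelihood fit of all 9 libraries with filterByExpr, TMM factors and Benjamini-Hochberg adjustment over 22430 genes. Genes were called at an adjusted p of 0.05 or lower and an absolute log2 fold change of at least 1. SEs were taken as the size of each log2 fold change over the root of its F statistic. Totals ran from 28756305 to 79836881 counts, and the reads carried no molecular identifiers. Log2 CPM used a prior count of 2. Exon lengths and coordinates came from GENCODE vM21 of GRCm38. The fit was checked on simulated counts whose biological coefficient of variation was set below the common value of 0.296 in the data. That check does not show how the fit performs at the spread of these libraries. All 32 genes are named. Values by library and full tests are given for called genes, for those with an unadjusted p of 0.05 or lower (at most the 8 smallest in each comparison) and for the 4 lymphatic genes. From a second list of 32 endothelial genes, called genes and the next 4 by p are named. Marker lists covered cartilage, macrophages, neutrophils, keratinocytes, fibroblasts, pericytes and smooth muscle, skeletal muscle, adipocytes, megakaryocytes and platelets, and leukocytes. Genes and lists were chosen with earlier results of these data known. The alternatives were DESeq2 1.42.0, RLE size factors, library totals, no filter, 6 libraries, the replicate block, and each library left out.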

Additional observations from a re-analysis of the deposited data

How the results depend on the processing

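In each of 15 alternatives per comparison the median of the 32 genes stayed above 0 in IMQ+H2O against VAS+H2O and below 0 in IMQ+XYF against IMQ+H2O. It crossed 0 in IMQ+XYF against VAS+H2O. Leaving out 1 library at a time gave medians of 0.63 to 1.01, -0.96 to -0.35 and -0.17 to 0.44 in these 3 comparisons, in that order. The number of the 32 genes called then ran from 0 to 7, stayed at 0, and ran from 0 to 5. In IMQ+H2O against VAS+H2O, 3 genes were called by edgeR, 8 by DESeq2, 1 without the low-count filter and 7 in the fit of the 2 groups alone, where the shares of all genes called were 0.994%, 3.9%, 0.6% and 2.38%. For IMQ+XYF against IMQ+H2O DESeq2 called 1 gene and 1.1% of all genes. For IMQ+XYF against VAS+H2O edgeR called 1 gene, DESeq2 2, RLE size factors 2, library totals 2, and the fit of the 2 groups alone 0, beside 1.20%, 3.42%, 1.23%, 1.48% and 0.152% of all genes. Fewer samples enter that fit and the fits without a library. Otherwise the cause was not tested.

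With the replicate number as a block, 3, 0 and 0 genes were called in the 3 comparisons, beside 86, 0 and 54 of all tested genes, with Sox18 in place of Nos3 in the first, and the call of Esm1 lost in the last. The libraries share only a number. The deviations of same-numbered libraries correlated from -0.183 to 0.125, and 1 of 9 libraries correlated best with one of its own number.

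Some genes with small fold changes changed sign when 1 library was left out. In IMQ+H2O against VAS+H2O these were Erg (-0.15 to 0.06), Sox7 (-0.41 to 0.09) and Cd34 (-0.31 to 0.07). In IMQ+XYF against IMQ+H2O they were Pdpn (-0.18 to 0.40), Sox7 (-0.42 to 0.17) and Apln (-0.87 to 0.10). In IMQ+XYF against VAS+H2O they were Pecam1 (-0.13 to 0.57), Cdh5 (-0.06 to 0.62), S1pr1 (-0.01 to 0.45), Emcn (-0.11 to 0.54), Esam (-0.21 to 0.44), Mmrn2 (-0.25 to 0.36), Aplnr (-0.36 to 0.67), Sox17 (-0.23 to 0.58), Tie1 (-0.42 to 0.18), Robo4 (-0.63 to 0.09), Ptprb (-0.45 to 0.18), Cd93 (-0.35 to 0.23), Ackr1 (-0.84 to 0.44), Cldn5 (-0.51 to 0.04), Sox7 (-0.58 to 0.04) and Mmrn1 (-0.57 to 0.04). Cd93 was also above 0, at 0.02, with library totals in place of TMM. Depth limits Esm1 most, since its counts per library were the lowest of the 32 genes.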
